A study of Mus musculus with 18 samples.

Results

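AGO2 is the Argonaute protein that carries microRNAs and short interfering RNAs to their targets and can cut them. The data described here are the RNA levels of mouse embryonic fibroblasts labelled Ago2-/- and Ago2+/+ that received DMSO, the solvent used for the stressors of the study. They ask what separates the labelled genotypes in the groups that received no endoplasmic reticulum (ER) stressor. All rows of the deposited table that pair the group labelled Ago2-/- DMSO with the group labelled Ago2+/+ DMSO were taken, which gave 51499 of the table's 772485 rows, 1 row for each assembled locus. Each group had 3 libraries, so that the pair drew on 6 of the 18 libraries of the series. The other 4 groups carried the same genotype labels and received tunicamycin or thapsigargin, the latter at 500 nM. The cells were cultured embryonic fibroblasts. The sources used here do not say which exons the knockout allele lacks, nor whether each line is 1 clone. The titles of the libraries labelled Ago2+/+ read DCR1, for which no reason is given.

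In a cell without stress, AGO2 and its relatives AGO1, AGO3 and AGO4 sit on a microRNA that pairs through its seed with sites in the 3′ untranslated region of mRNAs. The partner proteins of the TNRC6 family then recruit deadenylases, and the mRNA is translated less and decays faster. Loss of 1 Argonaute is therefore usually examined at the mRNAs with seed matches, and the other members may take over part of the load. Fibroblasts also keep a stable record of where in the body they came from, in the Hox genes and other positional transcription factors.

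The values are the authors' FPKM (fragment counts scaled for transcript length and library size), 1 pooled estimate for each group. They carry no replicate error, the depth of the libraries is unknown, and no difference below was tested. Ratios are given as log2 of Ago2-/- over Ago2+/+ after 0.1 FPKM was added to both values, which understates the ratio of low genes. A locus was called higher or lower when this log2 ratio was at least 1 in size, which is a 2-fold difference. A pair of facts bears on every direction given here. First, the labels of 4 libraries conflict on genotype, and 2 of them belong to the DMSO groups. Since only group values are tabulated, neither could be set aside. Second, the levels of sex-linked and Ago2 transcripts differed between groups that share a genotype label, as described next, so each group is named by its label.

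Ago2 (chr15:73095844-73184935, minus strand, GRCm38) was examined first. Its level in Ago2-/- DMSO was 5.61 FPKM, and its level in Ago2+/+ DMSO was 22.1 FPKM, a log2 ratio of -1.96. The low level was shared with Ago2+/+ tunicamycin, at 5.75 FPKM. The remaining groups stood at 15.5 FPKM (Ago2-/- tunicamycin), 20.7 FPKM (Ago2-/- thapsigargin) and 17 FPKM (Ago2+/+ thapsigargin). Ago2 was thus low in 1 of the 3 groups labelled Ago2-/- and in 1 of the 3 labelled Ago2+/+. The locus that holds Xist, the noncoding RNA that silences an X chromosome in female cells, stood at 46.6 FPKM in Ago2+/+ DMSO and at 0.0105 FPKM in Ago2-/- DMSO. It was at 33.5 FPKM in Ago2-/- thapsigargin and at most 0.0574 FPKM in the other 3 groups. Both DMSO groups had a listed value of 0 for each of 4 Y-linked genes (Uty, Kdm5d, Eif2s3y and Ddx3y). So did Ago2+/+ tunicamycin and Ago2-/- thapsigargin. In Ago2-/- tunicamycin and Ago2+/+ thapsigargin, Eif2s3y was at 30.3 and 32.3 FPKM and Ddx3y at 24.7 and 23.3 FPKM. Kdm5d was at 7.97 and 7.77 FPKM in these groups, and Uty at 6.64 and 6.03 FPKM. The pair compared here therefore differed in Xist as well as in Ago2, and a difference of genotype cannot be told apart from a difference between fibroblast cultures.

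The levels under DMSO were compared over all loci, and then with those of the other groups. Of the 11496 loci that held 1 gene and reached 1 FPKM in either DMSO group, 1229 (10.7%) were higher and 1106 (9.62%) were lower in Ago2-/- DMSO. The median log2 ratio over all of them was 0.0059. Every count of called list members below is to be read against these shares of all loci. The filter let 1451 loci pass through 1 group only, and these made up 611 of the higher and 565 of the lower loci. Between Ago2-/- DMSO and Ago2+/+ tunicamycin only 1.1% of the same loci were higher and 0.487% lower. Between Ago2-/- thapsigargin and Ago2+/+ DMSO 1.62% were higher and 2.14% lower. Among the 1229 higher loci, 1141 (92.8%) had an Ago2+/+ tunicamycin level within 2-fold of the Ago2-/- DMSO level. Among the 1106 lower loci this held for 1061 (95.9%). The levels in Ago2+/+ DMSO were within 2-fold of those in Ago2-/- thapsigargin for 1047 (85.2%) of the higher and 957 (86.5%) of the lower loci.

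**Figure D1:**
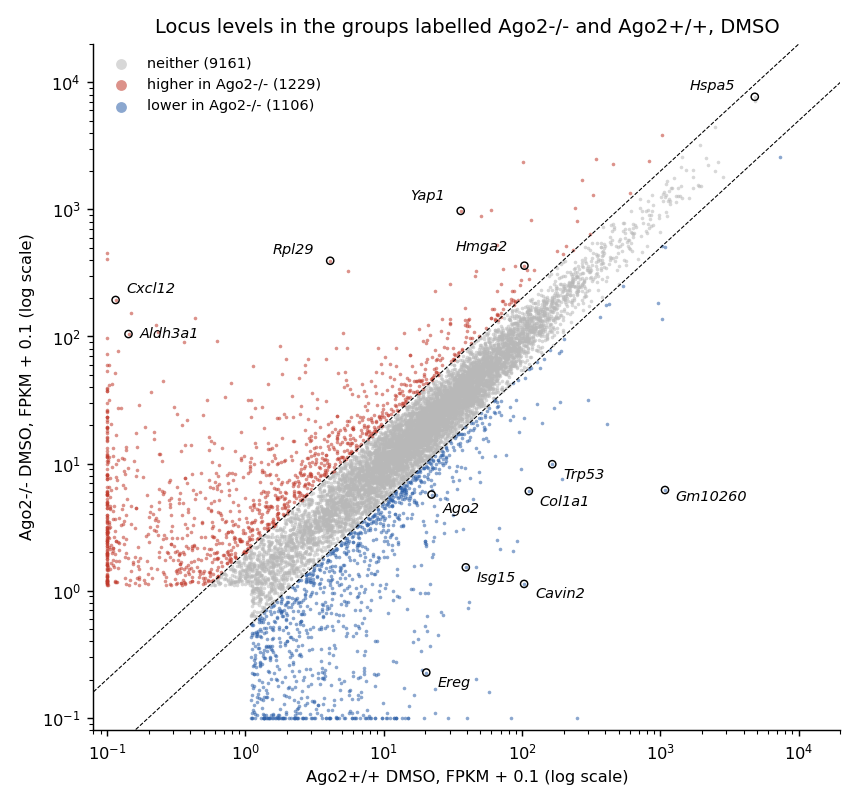
Level of each of 11496 loci in Ago2+/+ DMSO (x) and Ago2-/- DMSO (y), as deposited FPKM plus 0.1 on log axes, 1 point per locus. Dashed lines mark a 2-fold difference of the plotted values. Ago2 lies below the lower line, Yap1 and Cxcl12 lie far above the upper line, and the points along the left and bottom edges are loci at or near 0 in 1 group.

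The same genotype contrast under the stressors did not repeat these directions. The 3 contrasts share no group, but they are not independent, because groups resembled each other in pairs across the labels. Ago2-/- DMSO resembled Ago2+/+ tunicamycin, and Ago2+/+ DMSO resembled Ago2-/- thapsigargin. Ago2-/- tunicamycin resembled Ago2+/+ thapsigargin in the genes plotted below. The 3 ratios of a locus thus tend to cancel, and few loci could pass the rule in the same direction at all 3 treatments. Both stressor contrasts paired a group with Y-linked transcripts and a group without them. Under tunicamycin 10.4% of the 11496 loci were higher and 11.4% lower in the labelled Ago2-/-, and under thapsigargin 8.92% and 8.71%. Of the 1229 loci higher under DMSO, 88 (7.16%) were also higher under tunicamycin and 647 (52.6%) were lower. Under thapsigargin 170 (13.8%) were higher and 469 (38.2%) lower. Of the 1106 loci lower under DMSO, 75 (6.78%) were lower and 604 (54.6%) higher under tunicamycin, and 103 (9.31%) were lower and 388 (35.1%) higher under thapsigargin. Only 4 loci were higher in the labelled Ago2-/- at all 3 treatments, namely Gm29216, Gm15536 and the short RNAs Snord118 and Gm24389, chosen here after their values were seen. No locus was lower at all 3. Ago2 itself was not among the loci lower at all 3 treatments.

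**Figure D2:**
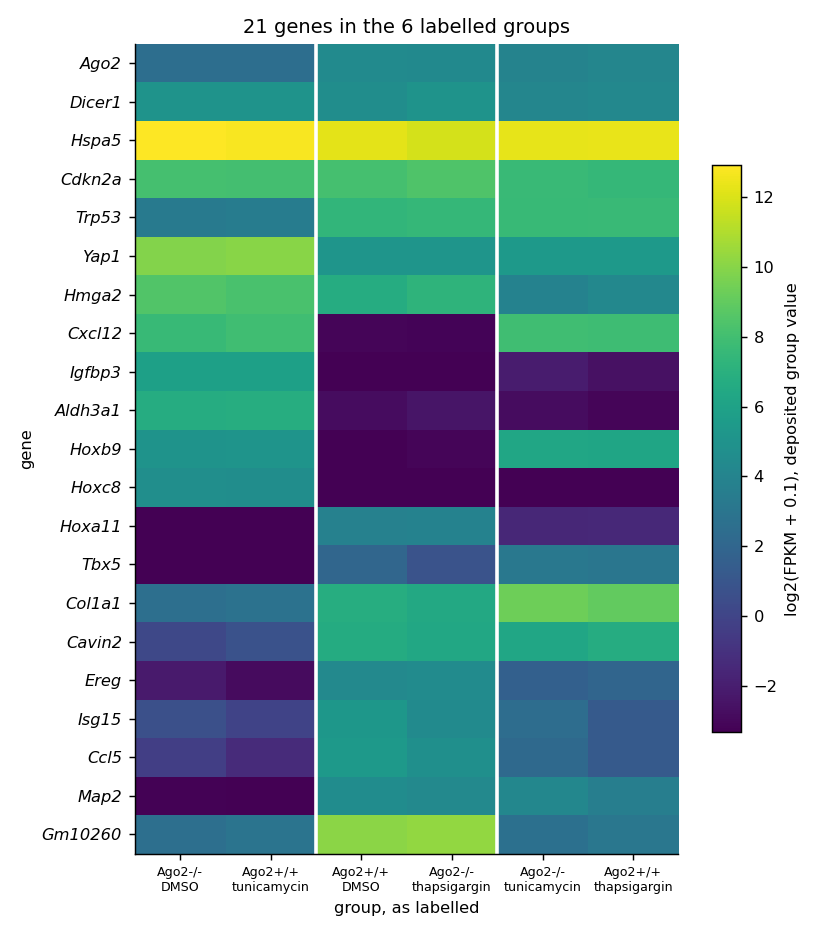
Level of 21 genes (rows) in the 6 labelled groups (columns), as log2 of deposited FPKM plus 0.1, with white lines between pairs of columns. Ago2-/- DMSO and Ago2+/+ tunicamycin share a pattern (high Yap1 and Aldh3a1, low Ago2 and Trp53), as do Ago2+/+ DMSO with Ago2-/- thapsigargin and Ago2-/- tunicamycin with Ago2+/+ thapsigargin.

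To ask whether other parts of the silencing machinery moved with Ago2, the members of the RNA-induced silencing complex and the microRNA processing enzymes were read one by one. Of 19 members of the complex and its effectors, 16 had a locus of their own and passed the filter, all in both groups. Ago2 was the only one past 2-fold. Ago1 was at 10.1 FPKM in Ago2-/- DMSO and 8.28 in Ago2+/+ DMSO, and Ago3 at 7.31 and 6.47 FPKM. Neither Argonaute came near a 2-fold difference. Among the TNRC6 proteins, which bind Argonautes, Tnrc6c was at 18.5 and 12.3 FPKM, while Tnrc6a (40.6 and 21.9 FPKM) and Tnrc6b (12.8 and 10.8 FPKM) lay in loci shared with other genes. The poly(A)-binding protein Pabpc1 was the highest member, at 755 and 651 FPKM, followed by the RISC nuclease Snd1 at 241 and 175 FPKM. The median of the complex was 0.06. None of the 9 processing enzymes that passed was called. Dicer1, which cuts microRNA precursors, was at 32.7 and 24.9 FPKM, and Xpo5, which exports them from the nucleus, was at 72.7 and 44.1 FPKM (log2 ratio 0.72, the largest of the 9). All 9 were thus within 2-fold.

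MicroRNA targets were then read by sequence, because they are the transcripts AGO2 acts on in the standard account. Mature sequences of families that are abundant in many mouse fibroblast cultures were taken from RefSeq, with the seed (bases 2 to 8) in capitals. The list of families was made from background knowledge, since these data hold no small RNAs.
let-7a-5p: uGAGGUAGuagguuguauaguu
miR-16-5p: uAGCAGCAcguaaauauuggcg
miR-17-5p: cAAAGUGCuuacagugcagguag
miR-199a-3p: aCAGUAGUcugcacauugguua
miR-26a-5p: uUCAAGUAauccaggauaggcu
miR-125b-5p: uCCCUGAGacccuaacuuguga
The first 4 are shown because their targets include the largest medians and the classical developmental family, the last 2 because their medians were below 0.

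A site was an 8-base match, the complement of bases 2 to 8 followed by an A, in the longest annotated 3′ untranslated region of each protein-coding gene (GENCODE M21, 9552 genes with at least 100 bases). The 367 genes with a let-7 site, CTACCTCA, had a median log2 ratio of 0.07, against -0.0065 for the 9185 genes without. Of those with a site, 11.2% were higher and 9.81% lower, against 9.72% and 8.61% of those without. The largest medians were 0.14 for miR-199a-3p (262 genes) and 0.14 for miR-15/16 (460 genes), and the lowest was -0.03 for miR-26 (504 genes). All 12 families fell between these values. Genes with a site had longer regions (a median of 2477 bases with a let-7 site and 1215 without). Within regions of 1000 to 3000 bases, the medians were 0.12 with a let-7 site (165 genes) and 0.0028 without. For miR-199a-3p they were 0.08 and 0.0061 in that range, and for miR-15/16 they were 0.15 and -0.0013. The quartiles of the let-7 set, -0.42 and 0.39, were far wider than any of these shifts. Under tunicamycin, the genes with a miR-15/16 site had a median of -0.20 between the labelled genotypes. With neither replicates nor a test, these shifts are descriptions only.

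**Figure D3:**
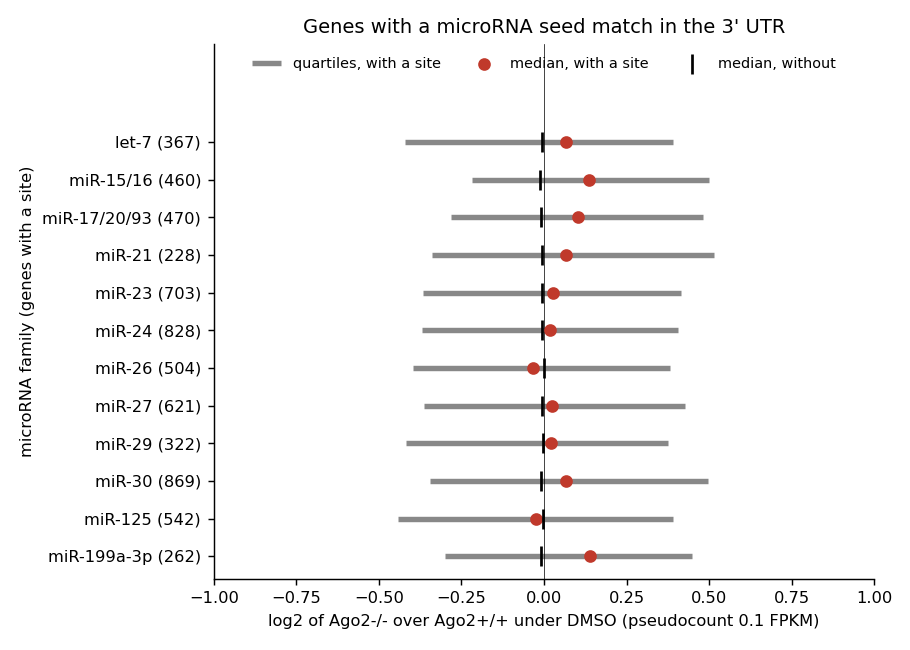
Log2 ratio of Ago2-/- over Ago2+/+ under DMSO for genes with an 8-base seed match of each of 12 microRNA families. Red points are medians, grey bars the quartiles over genes (not an error) and black ticks the median of genes without a match. Every red point lies between -0.03 and 0.14.

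Among 17 of the 20 mRNAs listed as let-7 targets that passed the filter, 3 were higher and 3 lower. Over all loci 10.7% were higher and 9.62% lower. Hmga2, a chromatin protein of embryonic tissue and a classical let-7 target, was at 360 FPKM in Ago2-/- DMSO and 104 in Ago2+/+ DMSO. It was at 306 and 149 FPKM in Ago2+/+ tunicamycin and Ago2-/- thapsigargin, and at 14.7 and 19.2 FPKM in Ago2-/- tunicamycin and Ago2+/+ thapsigargin. Its level in the labelled Ago2-/- groups hence spanned the lowest and the highest of the 6. The 3′ region of Hmga2 held 4 matches to the let-7 seed, the first of which is shown with the match in capitals.
Hmga2 site: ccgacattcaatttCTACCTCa
Thbs1 (92.0 and 19.2 FPKM) was also higher, while the cyclin Ccnd2 was lower at 15.1 and 56.3 FPKM. The longest annotated 3′ region of either gene held no match to the let-7 seed. Myc, at 140 and 73.9 FPKM, and Hmga1, at 359 and 269 FPKM, were not past 2-fold.

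A scan of runs of 11 neighbouring protein-coding loci found 5 stretches in which the median log2 ratio reached 2 in size, covering 32 of 9668 windows, all of them higher in Ago2-/-. One with high levels lay on chromosome 9. There Yap1, the transcriptional partner of TEAD factors in the Hippo pathway (chr9:7931999-8004596), was at 972 FPKM against 35.9. Dcun1d5, which helps attach NEDD8 to cullins, was at 989 against 59.4 FPKM, and Cep126, a centrosomal protein, at 122 against 0.126 FPKM. The inhibitors of apoptosis Birc2 (33.7 and 7.32 FPKM) and Birc3 (22.9 and 1.66 FPKM) lay between them, together with the collagenases Mmp13 (3.15 and 0.194 FPKM) and Mmp8 (2.27 FPKM, listed at 0 in Ago2+/+ DMSO). Tmem123, within the same stretch, was at 34.4 and 34.1 FPKM. In Ago2+/+ tunicamycin Yap1 was at 1035 FPKM and Dcun1d5 at 935, and in the other 4 groups Yap1 lay between 34.7 and 43.3 FPKM. Others were the Hoxb cluster on chromosome 11, a group of zinc-finger genes on chromosome 2 and a second stretch on chromosome 9, from Adamts7 to Pcolce2, which holds Zic1 and Zic4. Over the protein-coding loci of whole chromosomes the medians ran from -0.33 (chromosome 16) to 0.34 (chromosome 17).

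**Figure D4:**
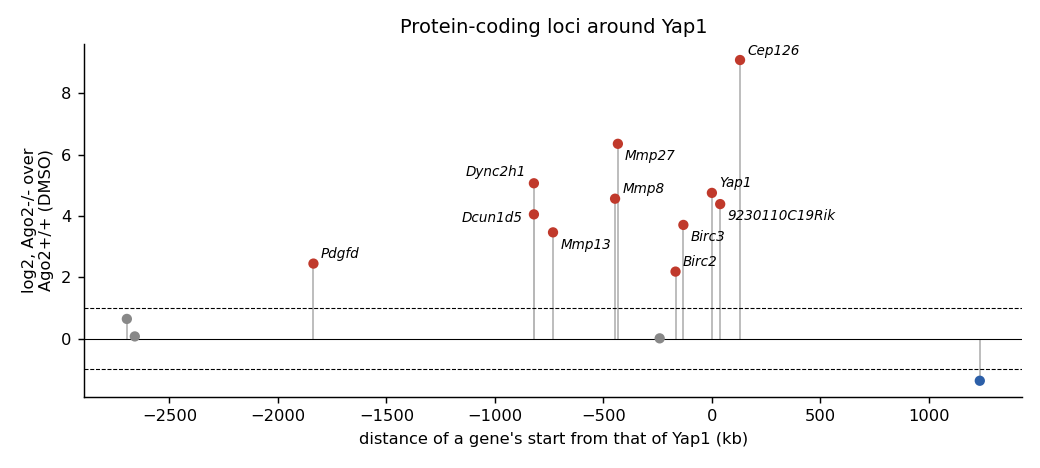
Log2 ratio of Ago2-/- over Ago2+/+ under DMSO for protein-coding loci within 3000 kb of the start of Yap1, against distance in kb. Dashed lines mark a log2 ratio of 1 in size. Tmem123 lies near 0 among the higher loci next to Yap1.

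Trp53, the tumour suppressor p53, was lower in Ago2-/- DMSO. It was at 9.79 FPKM in Ago2-/- DMSO and 165 in Ago2+/+ DMSO, a log2 ratio of -4.07. Ago2+/+ tunicamycin was the only other low group, at 10.9 FPKM, and the remaining groups lay between 176 and 202 FPKM. Of the 22 genes of the p53 pathway and the Cdkn2 locus, 20 passed the filter, 17 of them in both groups. Of the 20, 3 were higher and 7 lower, against 10.7% and 9.62% of all loci. Among these, Pmaip1 (higher) and Eda2r and Trp53inp1 (both lower) passed the filter through 1 group only. The p53 targets Mdm2 (20.5 and 58.0 FPKM), Cdkn1a (30.3 and 66.4 FPKM) and Ccng1 (13.5 and 35.6 FPKM) were lower, as was the inhibitor Cdkn2c (5.16 and 28.5 FPKM). Other p53 targets were higher, namely Pmaip1, a BH3-only death gene, at 3.27 FPKM against 0.0033, and Fas at 4.19 against 1.35 FPKM. Cdkn2b was also higher. Cdkn1a was lowest in Ago2-/- tunicamycin and Ago2+/+ thapsigargin, at 10.2 and 11.3 FPKM, where Trp53 was at 195 and 202 FPKM. The targets thus did not all follow the level of Trp53. Cdkn2a, which encodes p16 and p19ARF, was nearly equal at 279 and 283 FPKM. Of 26 cell cycle genes that passed, 3 (11.5%) were lower and 2 (7.69%) higher, close to the shares over all loci (9.62% and 10.7%), including Cdk2 (19.4 and 53.4 FPKM) and Ccnd1 (193 and 85.7 FPKM).

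The Hox genes, which mark position along the body axis and limb, differed in both directions. Of 38 Hox genes, 22 passed the filter with a locus of their own, but only 6 of these reached 1 FPKM in both groups. Of the 22, 15 were higher and 4 lower. The 9 Hoxb genes that passed, from Hoxb2 to Hoxb9 and Hoxb13, were all higher in Ago2-/- DMSO. Hoxb9 was at 31.6 FPKM against 0.00391, and it was at 34.0 FPKM in Ago2+/+ tunicamycin and at 76.1 and 74.3 FPKM in Ago2-/- tunicamycin and Ago2+/+ thapsigargin. Hoxc8 was at 25.6 FPKM and listed at 0 in Ago2+/+ DMSO. Among the posterior genes of the other clusters, Hoxa11 was listed at 0 in Ago2-/- DMSO and at 14.1 FPKM in Ago2+/+ DMSO, Hoxd13 was listed at 0 and at 6.03 FPKM, and Hoxa9 was at 0.865 and 20.7 FPKM. Each Hox gene given with values here was below 1 FPKM in 1 DMSO group, and passed the filter through the other alone. Over the 6 at 1 FPKM in both groups the median log2 ratio was 0.88, against 4.57 over all 22.

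Of other positional factors, more were higher than lower. Zic1 (12.6 FPKM) and En1 (4.40 FPKM) were listed at 0 in Ago2+/+ DMSO. The limb factor Tbx5 was listed at 0 in Ago2-/- DMSO and was at 3.98 FPKM in Ago2+/+ DMSO. Meox2, a mesodermal homeobox gene, was likewise listed at 0 against 2.60 FPKM. Zic1, En1, Tbx5 and Meox2 each passed the filter through 1 group only. Of 19 such factors that passed, 12 were higher and 2 lower, and of the 11 at 1 FPKM in both groups 6 were higher and none lower. The homeobox genes Prrx1 (42.4 and 13.2 FPKM) and Prrx2 (60.9 and 9.40 FPKM) and the zinc-finger gene Snai1 (11.3 and 2.90 FPKM) were higher with at least 1 FPKM in both groups. Imprinted genes, which are read from 1 parental copy, gave 6 higher and none lower among 9 with a locus of their own. Of the 7 at 1 FPKM in both groups 4 were higher. Snrpn, in a shared locus, was lower at 0.207 and 7.25 FPKM, and reached 1 FPKM in Ago2+/+ DMSO alone. Peg10 was at 27.8 and 1.22 FPKM, and Ndn was at 11.3 FPKM and listed at 0 in Ago2+/+ DMSO.

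**Figure D5:**
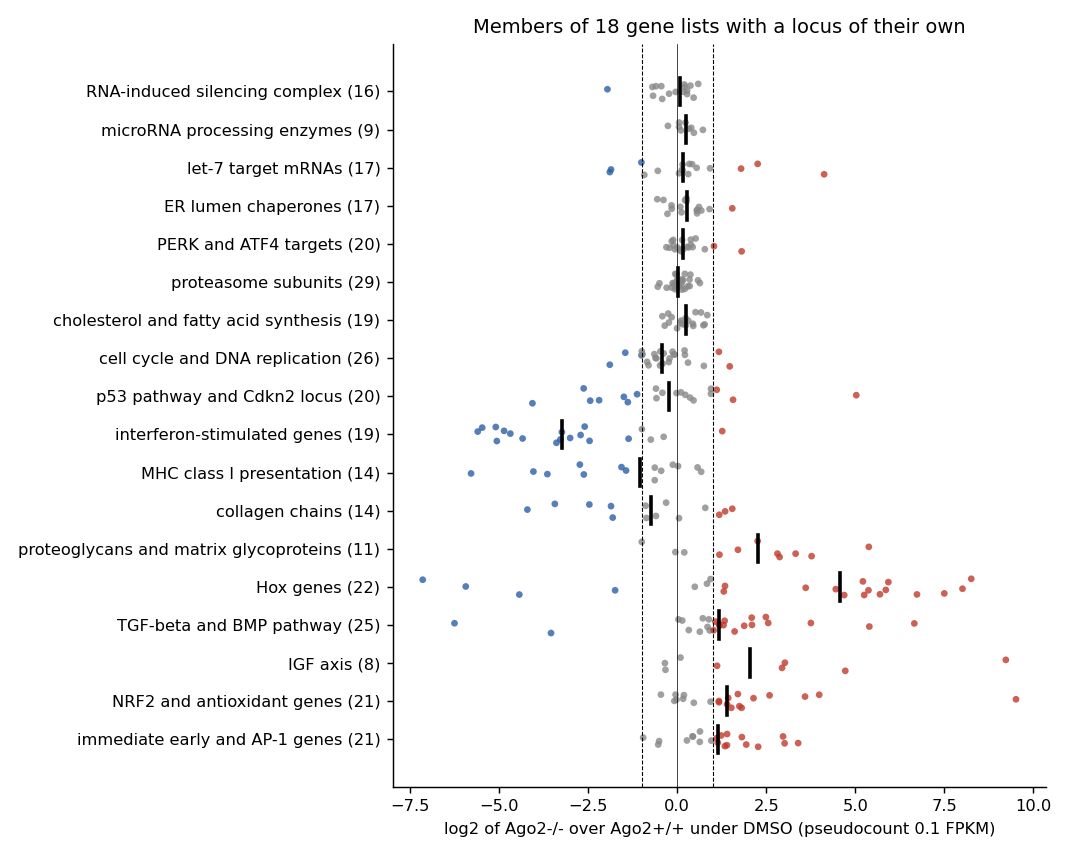
Log2 ratio of Ago2-/- over Ago2+/+ under DMSO for the members of 18 gene lists that have a locus of their own and passed the filter (number in brackets), 1 point per gene with random vertical spread. Black bars are list medians, dashed lines a log2 ratio of 1 in size. Interferon-stimulated genes lie mostly left, Hox, NRF2 and matrix glycoprotein genes mostly right, and the ER chaperones and proteasome subunits near 0.

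Interferon-stimulated genes, which cells switch on when they sense viral nucleic acid, were mostly lower in Ago2-/- DMSO. Of 32 listed, 19 passed the filter, and 15 of these were lower and 1 was higher, with a median log2 ratio of -3.24. Only 8 reached 1 FPKM in both groups, of which 4 were lower and 1 higher, with a median of -1.18. Isg15, a ubiquitin-like modifier, was at 1.43 FPKM against 39.2 in Ago2+/+ DMSO. Its levels elsewhere were 0.881 FPKM in Ago2+/+ tunicamycin, 21.4 in Ago2-/- thapsigargin, 5.56 in Ago2-/- tunicamycin and 2.34 in Ago2+/+ thapsigargin. Both groups with the highest Isg15 were thus those with Xist. The antiviral membrane protein Bst2 was at 11.4 and 63.5 FPKM, Ifit1 at 0.148 and 7.12 FPKM, and the higher member Ifi204, a DNA sensor, at 45.4 and 18.9 FPKM.

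Of 15 members of the list of sensors upstream of these genes, 4 were lower, against 9.62% of all loci. Of the 11 at 1 FPKM in both groups 1 was lower, a share near that of all loci. Ifih1, the sensor MDA5 of long double-stranded RNA, was at 0.0586 FPKM against 6.81. Tmem173, the adaptor STING, was at 0.543 against 26.6 FPKM, and Trim25, which activates RIG-I, was listed at 0 against 7.66 FPKM. Ifih1, Tmem173 and Trim25 passed the filter through Ago2+/+ DMSO alone. The lower member at 1 FPKM in both groups was Tlr3, at 1.10 and 2.64 FPKM. Adar, at 23.1 and 21.5 FPKM, and the receptor subunit Ifnar1, at 22.1 and 24.1 FPKM, were nearly equal. Antigen presentation by MHC class I gave 7 lower (50%, against 9.62% of all loci) and none higher of 14, with a median of -1.03. Over the 10 at 1 FPKM in both groups 3 were lower, and the median was -0.54. H2-D1 was at 27.5 and 170 FPKM, H2-K1 at 25.2 and 68.3 and the peptide transporter Tap1 at 0.111 and 2.54 FPKM, while B2m, the shared light chain, was at 230 and 356 FPKM. H2 and other MHC genes are close relatives, so that fragments could be split between them.

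Promoters of interferon-stimulated genes carry the interferon-stimulated response element, which transcription factors activated by interferon bind. Its core was searched as GAAANNGAAA on both strands of RefSeq promoters, 250 bases before to 50 bases after the start (GRCm38.p6). It was present in 3.99% of all 27025 genes with a promoter and in 3.26% of the 8063 that passed the filter. It was present in 9 of the 15 interferon-stimulated genes that passed and had a promoter in the table, and in 8 of the 12 lower ones. The list was chosen as interferon-stimulated, so this share does not bear on their being lower. The core was present in 5.34% of all lower genes and 3.59% of all higher genes. The promoters of Isg15 and Ifit1 are shown because they hold the motif in these genes with a large difference, with matched bases in capitals (3 overlapping matches in Isg15 and 2 separate matches in Ifit1).
Isg15 promoter (chr4:156200769-156201068, minus strand): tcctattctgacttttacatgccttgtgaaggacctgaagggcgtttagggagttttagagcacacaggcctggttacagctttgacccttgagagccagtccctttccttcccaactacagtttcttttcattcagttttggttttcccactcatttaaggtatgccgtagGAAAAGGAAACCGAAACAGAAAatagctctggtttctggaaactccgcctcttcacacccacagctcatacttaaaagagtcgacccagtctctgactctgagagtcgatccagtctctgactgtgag
Ifit1 promoter (chr19:34640639-34640938, plus strand): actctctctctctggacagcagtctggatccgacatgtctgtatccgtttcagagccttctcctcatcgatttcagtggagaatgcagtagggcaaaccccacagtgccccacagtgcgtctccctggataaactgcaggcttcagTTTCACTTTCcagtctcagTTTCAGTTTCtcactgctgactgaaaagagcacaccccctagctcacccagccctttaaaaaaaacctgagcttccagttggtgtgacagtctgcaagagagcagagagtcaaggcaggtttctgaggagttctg
A letter match does not show binding.

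Secreted signals differed in both directions, though the lower ones were mostly below 1 FPKM in Ago2-/- DMSO. Cxcl12, the chemokine that holds blood stem cells in their niche, was at 194 FPKM against 0.0157 and was at 244, 245 and 237 FPKM in Ago2+/+ tunicamycin, Ago2-/- tunicamycin and Ago2+/+ thapsigargin. Only the 2 groups with Xist lacked it. The growth factor Csf1 was at 258 and 70.7 FPKM, whereas the chemokines Ccl5 (0.712 and 41.3 FPKM) and Cxcl10 (0.581 and 26.0 FPKM) were lower. Of 13 chemokines and cytokines that passed, 6 were higher and 4 lower. Of the 7 at 1 FPKM in both groups 3 were higher and 1, Lif, was lower. Of the EGF family, Areg was higher at 65.8 and 3.71 FPKM and Ereg lower at 0.127 and 20.2 FPKM. Their receptor Egfr was at 5.18 and 1.63 FPKM. Of 8 EGF family genes that passed, 4 were higher and 1 lower. Of the 6 at 1 FPKM in both groups 3 were higher and none lower. Cxcl12, Ccl5, Cxcl10 and Ereg each passed the filter through 1 group only.

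Genes of the TGF-beta and BMP pathway were more often higher than lower. Of 25 that passed, 15 were higher and 2 lower, with a median of 1.17, and of the 18 at 1 FPKM in both groups 10 were higher and none lower. The ligand Bmp7 was at 10.2 FPKM against 0.00233, and Bmp4 at 19.2 against 3.35 FPKM. The BMP target genes Id1 (128 and 29.8 FPKM), Id2 (47.6 and 11.1 FPKM) and Id3 (98.2 and 39.0 FPKM) were all higher. The activin subunit Inhbb was lower at 0.00263 and 7.73 FPKM. Of the IGF axis, 5 of 8 were higher, among them Igfbp3, which binds insulin-like growth factors, at 59.7 FPKM and listed at 0 in Ago2+/+ DMSO, and Igfbp7 at 107 and 13.9 FPKM. Igfbp3 and Stc2 passed through Ago2-/- DMSO alone, and of the 6 at 1 FPKM in both groups 3 were higher, with a median of 0.60 in place of 2.03.

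Genes of the extracellular matrix split by kind. Several fibrillar collagens were lower. Col1a1 was at 5.97 FPKM against 112, Col5a2 at 8.94 against 97.8 and Col1a2 at 23.7 against 86.2 FPKM. The highest levels of these 3 were in neither DMSO group, since Col1a1 was at 651 FPKM in Ago2-/- tunicamycin and 521 in Ago2+/+ thapsigargin. Over 14 collagen chains that passed, 3 were higher and 5 lower, against 10.7% and 9.62% of all loci. Matrix glycoproteins gave 8 higher and none lower of 11, and 5 higher of the 8 at 1 FPKM in both groups, such as the proteoglycan Vcan at 52.1 and 5.12 FPKM and Thbs1 as given above. Fn1, fibronectin, was at 326 and 46.4 FPKM, but the authors' program had marked its comparison as failed. Genes of collagen hydroxylation and crosslinking gave 2 higher and 4 lower of 15, with a median of -0.76, and none higher and 4 lower of the 13 at 1 FPKM in both groups. The higher ones were the crosslinker Lox, at 42.2 FPKM against 0.00895, and the prolyl hydroxylase subunit P4ha3, at 3.46 against 0.134 FPKM. The lower ones included the transglutaminase Tgm2 (1.26 and 8.61 FPKM) and the prolyl hydroxylase subunit P4ha1 (27.2 and 57.5 FPKM). The inhibitors Timp3 (27.3 and 0.0261 FPKM) and Timp1 (336 and 122 FPKM) were higher, and the caveola protein Cavin2 was lower at 1.03 and 103 FPKM. Spp1, osteopontin, lay in a shared locus at 2015 and 256 FPKM.

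Genes of the NRF2 response, which counters oxidants and electrophiles, gave 13 higher and none lower of 21 that passed, with a median of 1.40. Over the 18 at 1 FPKM in both groups, 10 were higher and the median was 1.17. Nfe2l2, which encodes NRF2, was at 97.5 and 43.3 FPKM. Hmox1, which degrades haem, was at 256 and 97.1 FPKM, Txnrd1, which reduces thioredoxin, at 228 and 84.4 FPKM, and Gstm1, a glutathione transferase, at 52.6 and 8.64 FPKM. Aldh3a1, an aldehyde dehydrogenase, was at 104 FPKM against 0.0434 and was at 113 FPKM in Ago2+/+ tunicamycin and below 0.1 FPKM in the other 3 groups. Prdx1 (415 and 439 FPKM) and Sod1 (380 and 385 FPKM) were nearly equal. The core of the antioxidant response element was searched as TGACNNNGC. It was in 5 of the 16 NRF2 genes that passed and had a promoter in the table, and in 3 of the 9 higher ones. It was in 16.7% of all genes that passed. The list was chosen for this response, so its share does not bear on the genes being higher. Immediate early and AP-1 genes gave 12 higher and none lower of 21, with a median of 1.14, and 8 higher of the 17 at 1 FPKM in both groups, including Fosl1 (190 and 72.0 FPKM), Egr1 (50.3 and 13.1 FPKM) and Dusp4 (40.2 and 5.04 FPKM).

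The ER stress genes that the study was built around were mostly within 2-fold under DMSO. Of 17 ER chaperones that passed, only Dnajb9, a cochaperone of BiP, was past 2-fold, at 29.0 and 9.86 FPKM. Hspa5, which encodes BiP, was at 7682 and 4808 FPKM (log2 ratio 0.68). Its level was 6746 FPKM in Ago2+/+ tunicamycin and 5155 in Ago2-/- tunicamycin. It was 3677 FPKM in Ago2-/- thapsigargin and 5367 in Ago2+/+ thapsigargin, so that Ago2-/- DMSO was the highest. Of 20 PERK and ATF4 targets, 2 were higher, against 10.7% of all loci. They were Slc7a11 (26.3 and 7.45 FPKM) and Cebpb (43.0 and 21.0 FPKM), while Atf4 was at 532 and 394 FPKM. Ddit3 of the same list was at 339 and 237 FPKM, and between 253 and 349 FPKM in the groups given a stressor. Whether the DMSO groups were free of ER stress was not tested. Of the IRE1 and ER-associated degradation genes, 1 of 18 was lower, the sensor Ern1 at 20.8 and 42.8 FPKM. No proteasome subunit (29 passed) and no gene of cholesterol and fatty acid synthesis (19 passed) was called.

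The 3 genes that the study followed as AGO2 targets were low in both groups. Mertk, a receptor that clears dying cells, was at 0.597 FPKM in Ago2-/- DMSO and 2.53 in Ago2+/+ DMSO. The matricellular protein Nov was at 0.0615 and 2.45 FPKM, and the complement protease C1rl at 0.161 and 1.19 FPKM. All 3 were thus lower in Ago2-/- DMSO, although C1rl was no longer past 2-fold with a pseudocount of 1 FPKM (log2 ratio -0.91). In Ago2-/- thapsigargin they were at 2.97, 2.85 and 0.957 FPKM, and in Ago2+/+ tunicamycin at 0.782, 0.0906 and 0.267 FPKM. Rpl19, in a locus shared with other genes, was at 1475 and 1285 FPKM.

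The largest ratios were mixtures of short RNAs and genes that were nearly silent in 1 group. With predicted (Gm and Rik), pseudogene and ribosomal loci set aside, the 12 largest higher ratios at 10 FPKM or more in either group were those of mt-Tm, Snord104, Cxcl12, Afap1l2, Snord83b, Aldh3a1, Cyp1b1, Igfbp3, Cd24a, Cep126, Rny3 and Hspb1. The 12 lower were Snord70, AC108945.1, Ucp2, Epb41l3, Map2, Snord13, Hoxa11, Fhl1, Erdr1, Tgfb1i1, Tmem37 and Stk39. Afap1l2 was at 152 FPKM in Ago2-/- DMSO and at most 3.92 FPKM in any other group, so that Ago2+/+ tunicamycin did not share its level. The short RNAs mt-Tm, Snord104, Snord83b and Rny3 were likewise high in Ago2-/- DMSO and listed at 0 in Ago2+/+ tunicamycin. The mitochondrial uncoupling protein gene Ucp2 was at 0.0609 and 57.2 FPKM. Both mt-Tm and Snord70 were above 0 in 1 of the 6 groups, at 449 and 251 FPKM. Cyp1b1 (77.1 and 0.0200 FPKM) and Cd24a (59.7 and 0.00444 FPKM) were high in 4 groups and low in both groups with Xist.

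Ribosomal protein genes were mostly even, and for some of the exceptions a near copy differed the other way. Of 52 with a locus of their own, 3 were higher (Rpl29, Rpl34 and Rps18), and of those in shared loci Rps2 was higher and Rpl30 lower. Rps18 was at 2409 and 826 FPKM, while Gm10260, whose transcript matched Rps18 at 99.1% identity, was at 6.09 and 1080 FPKM. Summed over Rps18 and 6 near-copy loci, the levels were 2521 and 2124 FPKM, a log2 ratio of 0.25 in place of 1.54. For Rps2 the sum over 16 near-copy loci brought the log2 ratio from 4.19 to 0.84. Rpl29 (394 and 4.01 FPKM) kept a log2 ratio of 6.49 with its 2 copies. How fragments with several matches were assigned is not stated. Among other predicted, pseudogene and ribosomal loci, the largest ratios were at very short ones, between 0.087 and 0.11 kb. Gm24205, Gm26324, Gm22208 and Gm25709, annotated as snRNA, were at 97.4, 39.3, 30.1 and 26.2 FPKM in Ago2-/- DMSO and listed at 0 in Ago2+/+ DMSO. Gm11966 and Gm42845, both processed pseudogenes, and Gm23805, an snRNA, were listed at 0 in Ago2-/- DMSO against 83.6, 29.1 and 15.0 FPKM. Of these, each but Gm24205 was also listed at 0 in at least 1 other group.

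The cell type label was checked against marker lists. The 15 fibroblast markers gave a mixed picture. Of the 12 with a locus of their own 8 passed, of which 5 were higher and 2 lower. The higher ones included Fn1, whose comparison was marked as failed, and Pdgfrb (7.84 and 0.540 FPKM), which passed through Ago2-/- DMSO alone. Vim (2580 and 1439 FPKM), Ddr2 (191 and 88.2 FPKM), Twist2 (50.7 and 19.5 FPKM) and Prrx1 were at over 10 FPKM in both groups, and Col1a1 and Col1a2 were the 2 lower ones. Thy1 was listed at 0 in all 6 groups, and Lum (0.00341 FPKM and listed at 0), Fap (listed at 0 and 0.0861 FPKM) and Dcn (0.638 and 0.0488 FPKM) did not reach 1 FPKM in either DMSO group. Pdgfra, in a shared locus, was at 0.903 and 2.62 FPKM. No endothelial marker with a locus of its own and 1 epithelial marker (Krt19, 0.395 and 3.43 FPKM) passed the filter. Of 8 skeletal muscle markers listed, 7 were matched to a locus and 1 passed, Myf5 at 11.8 FPKM and listed at 0 in Ago2+/+ DMSO, and of the 6 pluripotent markers Sox2 (5.86 FPKM, listed at 0 in Ago2+/+ DMSO) and Esrrb passed. The neuronal marker Map2 was at 0.00909 and 23.2 FPKM, and the leukocyte markers Cd14 (16.7 and 5.60 FPKM) and Cd68 passed. Fewer cells of a type and less RNA per cell cannot be told apart in these pooled values.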

How the data were processed

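RNA of 18 libraries was sequenced, and 6 of them make up both DMSO groups. The authors aligned reads with HISAT2 (2.1.0), assembled transcripts with StringTie (1.3.4d) under Ensembl release 91 and quantified loci with Cuffdiff (2.2.1), on GRCm38; these versions come from the submitters' processing notes. The deposited FPKM is 1 value per group. The sources used here state neither library scaling nor strandedness, and the depth is unknown. The table also holds the authors' fold changes, test statistics, p-values and calls, which were not used. Groups follow the library titles.

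Log2 ratios were computed with pandas 2.3.3 and a pseudocount of 0.1 FPKM over loci of 1 gene with at least 1 FPKM in either DMSO group. Called means a log2 ratio of at least 1 in size. Named genes were Ago2 and its machinery, sex-linked genes, Mertk, Nov, C1rl and Rpl19, the 12 largest ratios per direction at 10 FPKM or more (4 more for Gm, Rik, pseudogene or ribosomal genes), and in each list up to 5 members per direction, with up to 3 others chosen by level. Near copies needed 95% identity over 80% of the transcript. Gene positions come from GENCODE M21. Neighbours of Yap1 and other genes outside this rule were named after their values were seen, and some genes within it are not reported here. The members and lists were chosen with earlier results of these data known, and the seed, neighbour and near-copy searches after the values were seen.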

Additional observations from a re-analysis of the deposited data

Results flagged for a closer look

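A pair of counts were set aside because the difference between the labelled genotypes pointed one way under DMSO and the other way under both stressors. Of the 1229 loci higher in Ago2-/- DMSO, 120 were at least 2-fold lower in Ago2-/- under tunicamycin and under thapsigargin. Of the 1106 loci lower in Ago2-/- DMSO, 121 were at least 2-fold higher under both. Groups with different labels resembled each other in pairs, as described above, so the ratios of a locus in the DMSO and stressor contrasts tend to cancel. A reversal is therefore largely set by the pairing, and these counts do not bear on a response to the stressors. The difference between treatments was not tested, because the table holds 1 value per group.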

How the results depend on the processing

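The table holds no count or depth, and precision is limited by pooling 3 libraries into 1 value. No paired analysis was possible because the table gives 1 pooled value per group, and no replicate could be left out for the same reason. With no filter on low values 2051 loci were higher and 1826 lower. With at least 1 FPKM in both groups the counts were 618 and 541, with at least 5 FPKM in either group 733 and 599, and with a log2 ratio of at least 2 they were 627 and 543. A pseudocount of 1 or 0.01 FPKM, centring on the median, loci of several genes and loci marked OK kept both counts within 1.5 times. The median of interferon-stimulated genes ran from -4.41 (pseudocount of 0.01 FPKM) to -1.18 (1 FPKM in both groups), and that of the Hox genes from 6.58 to 0.88 under the same settings. With a pseudocount of 1 FPKM, C1rl fell short of the rule (log2 ratio -0.91). No called list median or gene among those recomputed changed sign. The comparison of protein sequences between ribosomal genes and near copies was not run and was done on transcripts.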

Other observations

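Among 21 lysosomal genes that passed the filter, 2 were lower and 1 was higher, shares no larger than those over all loci (9.62% and 10.7%). Lamp1, a membrane protein of the lysosome, was at 177 FPKM in Ago2-/- DMSO and 401 in Ago2+/+ DMSO, and the sialidase Neu1 was at 5.18 and 13.9 FPKM. Of 23 subunits of the respiratory chain, Uqcrc1 was the only one past 2-fold, at 9.87 and 1.05 FPKM. Of 18 genes of glycolysis and glucose uptake, the enolases split, with Eno1 at 1351 and 599 FPKM and Eno2 at 0.802 and 6.41 FPKM. Ldhb was at 16.1 FPKM and listed at 0 in Ago2+/+ DMSO, while Ldha was at 889 and 1111 FPKM. Tpi1 was lower at 248 and 539 FPKM, and no other gene of this list that passed was past 2-fold. Eno2 and Ldhb passed the filter through 1 group only.

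Among noncoding RNAs, Neat1, the scaffold of nuclear paraspeckles, was at 360 and 88.9 FPKM, and Malat1 at 138 and 81.0 FPKM. Of the integrins and laminins, 1 of 13 was higher and 3 were lower, against 10.7% and 9.62% of all loci. The muscle-type integrin chain Itga7 was at 0.943 and 10.1 FPKM. Of the Wnt genes, Wnt10b was at 2.34 and 19.7 FPKM and Wnt6 at 3.40 and 0.0319 FPKM. Fgf7, a fibroblast factor that acts on epithelia, was at 91 and 0.258 FPKM, and Kitl, the ligand of the receptor KIT, at 2.26 and 19.7 FPKM.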
